A study of Mus musculus with 8 samples.

Results

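The comparison described here is that of mouse T-cell progenitors past T-lineage commitment that received CRISPR guides against Stat5a and Stat5b with cells of the same stage that received control guides. It rests on 4 of the 8 RNA-seq libraries of the series, 2 per arm, chosen by their labels alone (CD25+, Bcl11b reporter-positive, sgStat5a+sgStat5b or sgControl, each with replicate numbers 1 and 2). All genes were examined. The deposited count table lists 24506 gene symbols, of which 13775 passed a filter on low counts and were tested.

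Bone-marrow progenitors came from B6 mice with Cas9, a Bcl2 transgene and a Bcl11b-mCherry reporter on both alleles, and both arms share this background. They were held overnight with IL-7, Flt3 ligand and SCF and infected with retrovirus that carried either control guides or 3 guides against each of Stat5a and Stat5b. For the next 6 days they grew on OP9-DLL1 feeder cells (stroma engineered to present the Notch ligand DLL1) with 10 ng/ml each of IL-7 and Flt3 ligand. Cells that lacked lineage markers and carried the infection marker, CD25 and mCherry were sorted for bulk RNA-seq. The mCherry-negative, pre-commitment libraries are used here only for comparison. The cells are an infected pool and not a clone, the targets of the control guides and the age and sex of the mice are not stated in the labels, and neither is the share of cells with cut alleles. The Bcl2 transgene is present in every library. In bulk samples such as these, fewer cells of a type and less RNA per cell cannot be told apart.

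STAT5A and STAT5B are closely related transcription factors that wait in the cytoplasm. Cytokines such as IL-7 act through receptors built on the common gamma chain, whose kinases JAK1 and JAK3 phosphorylate STAT5, and the STAT5 dimers then enter the nucleus and bind the palindrome TTCNNNGAA (N is any base). Among the genes they are known to switch on are feedback inhibitors of the same pathway (CIS and SOCS proteins), survival genes and receptors. IL-7 sustains the survival and growth of early thymic progenitors, while Notch signals and the factor BCL11B set their T-cell identity.

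Total counts of the 4 libraries were 26627248 and 31209177 for control and 22458690 and 27169689 for sgStat5, replicate 1 first. Every pair of values below keeps that order, and levels are CPM, counts scaled to library size. Bcl11b, the gene behind the reporter, stood at 542 and 219 CPM in the control and 797 and 415 CPM in the sgStat5 libraries, against 132 and 45.6 and 132 and 70.1 CPM in the pre-commitment libraries of the same arms. The replicate numbers carry a difference of their own. Xist, which is expressed from the inactive X chromosome of females, stood at 0 and 1993 CPM in the control and 0.133 and 2345 CPM in the sgStat5 libraries, so replicates 1 and 2 do not share a source of cells. Control replicate 1 also had more RNA of later T-cell genes than control replicate 2 (for example Cd3e 237 and 29.7 CPM and Ptcra 12.1 and 1.10 CPM), and collagen genes of stromal cells were higher in replicate 2 of both arms. Each sgStat5 library was therefore compared with the control library of its number, by edgeR's quasi-likelihood test in a model that held the replicate number as a block. For each gene given whose call was lost without this block, the adjusted p of the fit without it is printed as unblocked. Whether the replicates were separate cultures or animals is not in the labels, so p-values reflect no more than the variation among these samples.

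After commitment, 1132 genes differed between sgStat5 and control cells at an adjusted p below 0.05, which is 8.22% of the 13775 tested, and such genes are referred to as called. Of these 513 rose (3.72%) and 619 fell (4.49%). In all 1132 both pairs of libraries moved the same way. In 1025 both sgStat5 libraries lay on 1 side of both control libraries, and in 107 the arms overlapped. The test with the block favours genes whose pairs agree, so these counts describe the called genes and add no support to the calls. The same shares over all genes tested are not given here. The median log2 fold change was 0.92 among genes that rose and -0.62 among genes that fell, against -0.012 over all genes tested. Changes of more than 4-fold were seen in 57 genes that rose and 63 that fell. Without the block 235 genes were called (1.71%), 104 higher and 131 lower, and all of them were among the 1132. The balance of directions was not the same in every fit: limma on the authors' FPKM values gave 502 genes higher and 352 lower, and edgeR on counts with a stricter filter gave 582 and 530.

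The targeted genes were measured first. Stat5a (chromosome 11, 100859351 to 100885169 in mm10, plus strand) stood at 257 and 238 CPM in the control and 116 and 108 CPM in the sgStat5 libraries. Stat5b (chromosome 11, 100780731 to 100850585, minus strand), its neighbour on the same chromosome, stood at 279.8 and 255 CPM in the control and 154 and 135 CPM in the sgStat5 libraries. For either gene the sgStat5 values were all under the control values, and RNA of both remained. Stat5a fell by 1.15 (log2 fold change, with its standard error, SE, of 0.07; adjusted p = 0.000172), and Stat5b fell by 0.89 (SE 0.07, adjusted p = 0.000190). Small insertions or deletions need not lower a transcript, so the RNA level is no measure of the STAT5 protein left. The 2 genes are close paralogs, and the counting may assign a shared read to the wrong one.

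Among genes with an entry in the promoter table, the 4 STAT5-associated genes with the largest fall and the 4 interferon or MHC genes with the largest rise were taken. Of these 8, the 4 that held a motif match are shown: Lta and Cish, which fell, and Gbp2 and Tgtp2, which rose. They come from RefSeq (GRCm38.p6, the same assembly as mm10), run 5′ to 3′ on the strand of the gene, and span 170 bases before to 30 after the start site. Capitals mark matches to TTCNNNGAA, the STAT palindrome, which reads the same on both strands, and to an ISRE-type motif on either strand, GAAA then any 2 bases then GAAA again, letters of the interferon-stimulated response element bound by IRF proteins.
Lta (chr17:35205322-35205521, minus strand): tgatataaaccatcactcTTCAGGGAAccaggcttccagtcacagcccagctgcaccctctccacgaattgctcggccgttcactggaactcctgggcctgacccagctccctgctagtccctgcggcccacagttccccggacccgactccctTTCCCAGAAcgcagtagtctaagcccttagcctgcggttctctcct
Cish (chr9:107296489-107296688, plus strand): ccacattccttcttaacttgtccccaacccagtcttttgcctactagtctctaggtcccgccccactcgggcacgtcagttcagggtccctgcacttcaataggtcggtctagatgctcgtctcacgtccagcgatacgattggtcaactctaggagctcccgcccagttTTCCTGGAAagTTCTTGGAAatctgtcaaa
Gbp2 (chr3:142620493-142620692, plus strand): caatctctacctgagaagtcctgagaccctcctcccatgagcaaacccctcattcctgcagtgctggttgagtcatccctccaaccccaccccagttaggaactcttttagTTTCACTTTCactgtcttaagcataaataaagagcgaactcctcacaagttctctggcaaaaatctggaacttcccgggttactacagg
Tgtp2 (chr11:49064183-49064382, minus strand): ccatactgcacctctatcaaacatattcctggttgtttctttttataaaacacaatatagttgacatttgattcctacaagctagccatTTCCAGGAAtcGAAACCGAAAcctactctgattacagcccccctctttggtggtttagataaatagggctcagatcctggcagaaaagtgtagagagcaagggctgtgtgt
Lta and Cish each held 2 matches to TTCNNNGAA, and those of Cish, TTCCTGGAA and TTCTTGGAA, lie side by side at the start site. Gbp2 held 1 match to the ISRE-type motif on the other strand (TTTCACTTTC), and Tgtp2 held 1 match to each motif (TTCCAGGAA and GAAACCGAAA), which do not overlap. The other 4, Tnfrsf9 and Il4ra, which fell, and H2-Eb1 and H2-Aa, which rose, held neither run of letters in the full window of 250 bases before to 50 after the start. Over all 32851 windows of 300 bases in the table, 8.3% held TTCNNNGAA and 3.44% held the ISRE-type motif. Counted per gene the shares were 9.55% and 3.99% of 27025 genes. Of the 14 STAT5-associated genes that fell, 10 had an entry, and 3 of these held TTCNNNGAA and 0 held the ISRE-type motif. Of the 55 interferon and MHC genes that rose, 42 had an entry, and 13 held TTCNNNGAA and 20 held the ISRE-type motif. A match is a description of the letters and does not show binding.

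The listed genes known to respond to STAT5 were lower as a group. Of 24 listed STAT5-associated genes, all tested, 14 fell and 2 rose, against 4.49% and 3.72% of all genes, with a median log2 fold change of -0.70. This list and those below were chosen with earlier results of these data known. Their counts therefore describe the members and are no test of a group. For each list below, the shares of all genes to set beside its counts are these same 4.49% and 3.72%. Feedback inhibitors were among the largest falls. Socs2, whose product restrains cytokine receptors, stood at 109 and 137 CPM in the control and 15.9 and 21.5 CPM in the sgStat5 libraries, and Cish, which encodes CIS, at 28.8 and 40.8 CPM in the control and 2.74 and 6.74 CPM in the sgStat5 libraries. In each case the higher sgStat5 library lay far below the lower control library. Socs2 fell by 2.73 (SE 0.22, adjusted p = 0.000192) and Cish fell by 2.996 (SE 0.37, adjusted p = 0.00148, 0.161 unblocked).

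Genes for surface and secreted products fell as well. Lta, which encodes lymphotoxin alpha, went from 6.24 and 8.97 to 0.619 and 1.15 CPM and thus fell by 3.10 on the log2 scale (SE 0.35, adjusted p = 0.000831). Tnfrsf9, which encodes the costimulatory receptor 4-1BB, went from 33.3 and 30.4 to 5.97 and 5.74 CPM (-2.45, SE 0.21, adjusted p = 0.000224). The arms did not overlap for either gene. Il4ra, the receptor chain for IL-4, stood at 537 and 196 CPM in the control and 132 and 59.1 CPM in the sgStat5 libraries, so that it fell in each pair (-1.88, SE 0.12, adjusted p = 0.000172, 0.283 unblocked), and replicate 1 was above replicate 2 in both arms. Il2ra, which encodes the sort marker CD25, stood at 2948 and 3075 CPM in the control and 1374 and 1886 CPM in the sgStat5 libraries (-0.89, SE 0.11, adjusted p = 0.00135). Both sgStat5 libraries kept over 1000 CPM of it, and all cells had been sorted as CD25+. The cytokine genes Osm (-0.87, 0.0789 unblocked) and Lif (-0.72, 0.0802 unblocked) fell too.

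Among survival and growth genes of the list, Bcl2 stood at 387 and 414 CPM in the control and 93.6 and 143 CPM in the sgStat5 libraries and fell by 1.796 (SE 0.17, adjusted p = 0.000298). Since the mice have an added Bcl2 transgene, reads from it may or may not be part of this count, which the labels leave unsaid. Bcl2l1, which encodes the survival protein BCL-XL, went from 36.4 and 52.98 to 17.5 and 23.3 CPM (-1.12, SE 0.13, adjusted p = 0.000831, 0.132 unblocked). Bhlhe40, a transcriptional repressor, went from 25.04 and 28.6 to 7.12 and 9.75 CPM (-1.67, SE 0.19, adjusted p = 0.000996). Pim1, a kinase gene (-0.57), the cyclin gene Ccnd2 (-0.75, 0.103 unblocked) and the ERK phosphatase gene Dusp5 (-0.69, 0.109 unblocked) fell by smaller amounts. Myc (log2 fold change 0.17, SE 0.11), Mcl1 (0.11, SE 0.09) and Socs1 (-0.11, SE 0.15) did not pass.

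The members that rose were Bcl6 and Socs3. Bcl6 (chromosome 16, 23965050 to 23988852), a repressor that opposes STAT5 at many shared sites in other lymphocytes, stood at 2.34 and 3.13 CPM in the control and 21.7 and 16.5 CPM in the sgStat5 libraries, both sgStat5 libraries lying above both control libraries (2.83, SE 0.28, adjusted p = 0.000381). Socs3, an inhibitor of gp130 receptors that STAT3 also induces, stood at 34.0 and 17.1 CPM in the control and 65.9 and 55.1 CPM in the sgStat5 libraries (1.30, SE 0.19, adjusted p = 0.00358, 0.156 unblocked). For all 16 called members of the list the arms did not overlap, which also held for 1025 of all 1132 called genes. Without the block 8 of the 16 were called, and 12 of the 16 stayed called when any 1 of the 4 libraries was left out. The exceptions were Osm, Ccnd2, Lif and Dusp5.

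**Figure D1:**
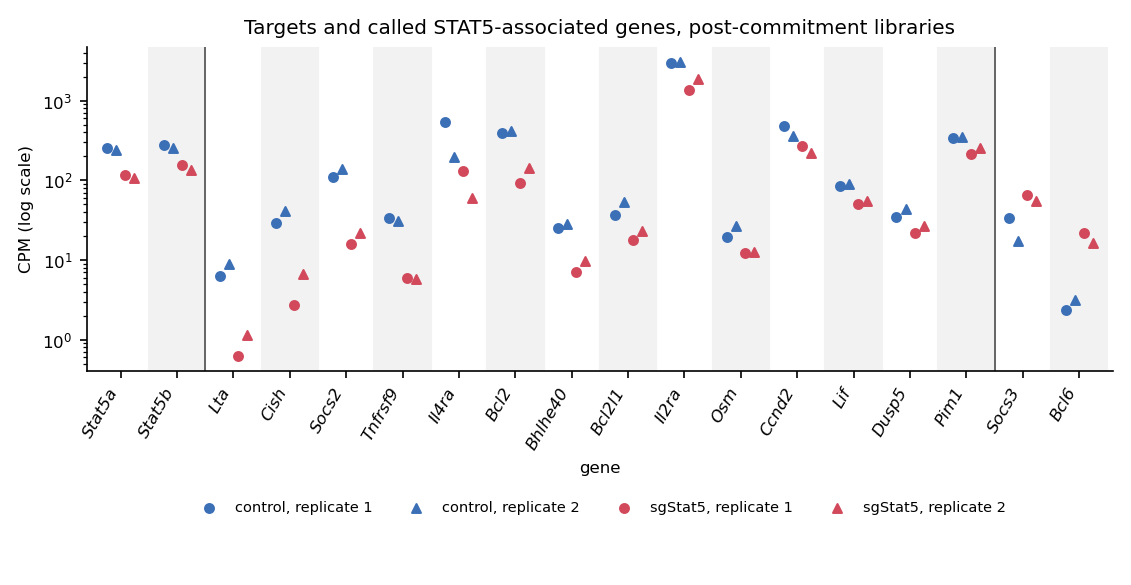
Level in CPM (log axis) of Stat5a, Stat5b and the 16 called STAT5-associated genes in each of the 4 post-commitment libraries, with control in blue, sgStat5 in red, circles for replicate 1 and triangles for replicate 2. Vertical lines separate the targets, the 14 genes that fell and the 2 that rose (Socs3 and Bcl6), and in every column the red points lie on 1 side of the blue points.

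Several receptor and kinase genes upstream of STAT5 rose. Of 22 tested genes for IL-7 and common gamma chain receptors, JAK kinases, STATs and their phosphatases, 8 rose and 3 fell, the latter being Stat5a, Stat5b and Il2rb, with a median of 0.12. Il7r (chromosome 15, 9506159 to 9529876), the IL-7 receptor alpha chain, stood at 82.8 and 81.6 CPM in the control and 239.6 and 236 CPM in the sgStat5 libraries. Replicates of an arm differed little beside the gap between arms (1.53, SE 0.11, adjusted p = 0.000190). The shared gamma chain Il2rg (0.34, SE 0.07, adjusted p = 0.0178, 0.279 unblocked), the IL-15 receptor alpha chain Il15ra (1.01, SE 0.24, adjusted p = 0.0355, 0.241 unblocked) and the kinases Jak3 (0.98, SE 0.10, adjusted p = 0.000410) and Jak1 (0.29, SE 0.06, adjusted p = 0.0212, 0.211 unblocked) rose. Il2rb, the beta chain shared by IL-2 and IL-15 receptors, stood at 11.3 and 12.5 CPM in the control and 5.39 and 4.59 CPM in the sgStat5 libraries (-1.24, SE 0.27, adjusted p = 0.0237, 0.121 unblocked).

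Other STAT genes did not behave alike. Stat3, which carries gp130 signals, stood at 237 and 240.0 CPM in the control and 338 and 352 CPM in the sgStat5 libraries (0.53, SE 0.07, adjusted p = 0.00178), and Stat2, which carries type I interferon signals, rose as well (0.68, SE 0.12, adjusted p = 0.00806, 0.232 unblocked). Stat4 (-0.05, SE 0.11) and Stat6 (0.09, SE 0.08) did not pass. Per transcript length, the authors' FPKM values for Stat5a averaged 48.6 in control and 22.9 in sgStat5 libraries. The calls of Stat5a, Stat5b, Il7r, Jak3 and Stat3 stayed without the block, and they also stayed when any 1 of the 4 libraries was left out.

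Most of the listed genes that interferons induce rose. Interferons act through STAT and IRF proteins, and their targets include antiviral proteins, large GTPases that attack vacuoles of microbes, and the machinery that shows peptides to T cells. The labels list no added interferon. Of 28 tested antiviral genes 20 rose and 1 fell (median 1.14), and 27 had a positive fold change. Of 16 interferon-inducible GTPases 14 rose and 0 fell (median 1.34). These shares, of genes listed with earlier results of these data known, stand against 3.72% of all genes that rose.

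Iigp1, an immunity-related GTPase, showed the largest increase of the GTPases. It stood at 7.85 and 25.1 CPM in the control and 205 and 268 CPM in the sgStat5 libraries (4.05, SE 0.32, adjusted p = 0.000190, 0.0776 unblocked), so that both control libraries, although unlike each other, were far below the sgStat5 libraries. Gbp2, a guanylate-binding protein, stood at 42.4 and 42.9 CPM in the control and 199 and 301 CPM in the sgStat5 libraries (2.51, SE 0.20, adjusted p = 0.000190). Tgtp2 went from 259.9 and 255 to 899 and 916 CPM (1.82, SE 0.11, adjusted p = 0.000172), and its near-identical neighbour Tgtp1, with which it can share reads, had about the same values. The related GTPases Irgm1 (1.47), Irgm2 (1.43), Igtp (1.18, 0.0768 unblocked) and Ifi47 (1.09) rose. So did the very large GTPase Gvin1 (1.505) and the guanylate-binding proteins Gbp5 (1.44), Gbp3 (1.26), Gbp9 (1.16, 0.565 unblocked), Gbp6 (0.93, 0.696 unblocked) and Gbp7 (0.81, 0.159 unblocked). Gbp6 was the 1 called GTPase whose arms overlapped, with 720.0 and 235 CPM in the control and 1024 and 613 CPM in the sgStat5 libraries. Gbp4 (0.82, SE 0.28) and Gbp8 (0.53, SE 0.21) had positive values that did not pass, with control libraries at 439 and 148 CPM for Gbp4 and 241 and 72.8 CPM for Gbp8. Gvin1 and the Gbp genes of the cluster have close paralogs among which reads can be split.

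Among antiviral genes, Zbp1, a sensor of nucleic acids, stood at 15.9 and 5.68 CPM in the control and 88.6 and 62.5 CPM in the sgStat5 libraries (2.91, SE 0.25, adjusted p = 0.000231). Usp18, which removes ISG15 from proteins and damps interferon receptors, went from 12.4 and 5.68 to 36.8 and 30.9 CPM (1.95, SE 0.26, adjusted p = 0.00202). Irf1, a transcription factor induced mainly by type II interferon, stood at 127 and 123 CPM in the control and 284 and 295 CPM in the sgStat5 libraries, with replicates almost equal (1.21, SE 0.08, adjusted p = 0.000172). The values do not overlap between arms for any of the 3 genes. Irf7 (1.55, 0.118 unblocked), Irf8 (1.49) and Irf9 (0.93, 0.169 unblocked), which drive later waves of the response, also rose. Oas1a (1.61, 0.383 unblocked), Oasl2 (1.58, 0.311 unblocked), Isg15 (1.49, 0.0739 unblocked), Rtp4 (1.43, 0.254 unblocked), Xaf1 (1.404, 0.251 unblocked), Ifit1 (1.47, 0.647 unblocked) and Dhx58 (1.07, 0.0521 unblocked) followed. The arms overlapped in 3 of the 21 called antiviral genes, Ifit1, Ddx58 and Samhd1.

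The 7 antiviral genes that did not pass included Mx1 and Mx2. Mx1 and Mx2 had 0.226 to 5.08 CPM over the 4 libraries and did not pass (0.86, SE 0.86, and 1.57, SE 0.96), and Rsad2 (1.26, SE 0.49), Ifit2 (0.89, SE 0.25) and Ifit3 (1.05, SE 0.33) did not pass either. Some of the listed RNAs were unequal between the control replicates, as for Rsad2 with 16.4 and 3.29 CPM and Oasl2 with 75.8 and 24.8 CPM, and the sgStat5 libraries stood at 28.5 and 13.7 and 152 and 118 CPM. Ifitm3, which blocks entry of viruses into cells, was the 1 listed gene that fell. It stood at 216 and 261 CPM in the control and 72.0 and 114 CPM in the sgStat5 libraries (-1.38, SE 0.14, adjusted p = 0.000405). Without the block 5 of the 21 calls among antiviral genes and 9 of the 14 among GTPases stayed. With any 1 of the 4 libraries left out, 9 and 11 stayed, respectively. The control arm without replicate 2 gave 11 antiviral calls higher, and the sgStat5 arm without replicate 1 gave 10.

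Most genes for MHC class I presentation rose. Class I molecules show peptides made in the cell, which the immunoproteasome cuts, the TAP transporter carries and tapasin loads. Of 16 genes 14 rose and 0 fell (median 0.80). B2m, the light chain of all class I molecules, stood at 893 and 925 CPM in the control and 1587 and 1636 CPM in the sgStat5 libraries (0.83, SE 0.06, adjusted p = 0.000190). Nlrc5, their main transcriptional activator, went from 63.0 and 69.8 to 224 and 177 CPM (1.597, SE 0.13, adjusted p = 0.000197). Spread within an arm was small beside the gap for both genes. The heavy-chain genes H2-K1 (0.97, SE 0.09, adjusted p = 0.000306) and H2-D1 (0.95, SE 0.09, adjusted p = 0.000339) rose, and the nonclassical H2-Q7 (1.57) and H2-Q4 (1.43) rose by more, although reads can be shared among these similar genes. Tap1 (1.07), Tapbp (0.60) and the immunoproteasome subunits Psmb9 (0.77), Psmb10 (0.56, 0.113 unblocked) and Psmb8 (0.31, 0.547 unblocked) rose as well. Tap2 (0.29, SE 0.10) and Psme2 (0.16, SE 0.09) did not pass. In this list 10 calls stayed without the block, and 10 stayed with any 1 library left out.

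Class II genes, which show peptides from outside the cell and are normally the property of antigen-presenting cells, also rose, several of them from near absence to low levels. Of 10 tested genes 7 rose and 0 fell (median 1.92). Cd74, the invariant chain, stood at 2.22 and 8.002 CPM in the control and 59.0 and 77.3 CPM in the sgStat5 libraries (3.98, SE 0.33, adjusted p = 0.000202, 0.0943 unblocked). H2-Aa and H2-Eb1, an alpha and a beta chain, stood at 0.230 and 1.97 and at 0.115 and 1.26 CPM in the control libraries and at 15.9 and 24.1 and 14.1 and 26.2 CPM in the sgStat5 libraries. Each sgStat5 library was thus well above the higher control library. The fitted log2 fold changes were 4.61 (SE 0.52, adjusted p = 0.000807, 0.208 unblocked) and 5.02 (SE 0.51, adjusted p = 0.000434, 0.0826 unblocked), and with so few control counts their size depends on the few reads seen there. Ciita, the master activator of class II genes, stood at 0.383 and 0.871 CPM in the control and 8.0 and 9.39 CPM in the sgStat5 libraries (3.92, SE 0.46, adjusted p = 0.00101, 0.0643 unblocked). H2-Ab1 (2.28), H2-Ob (1.56, 0.227 unblocked) and H2-DMb1 (1.30, 0.173 unblocked) rose, and H2-DMa (0.45, SE 0.24), H2-DMb2 (0.97, SE 0.41) and H2-Oa (0.45, SE 0.21) did not pass. H2-Ab1 alone was called without the block, and 6 of the 7 stayed called with any 1 library left out.

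Antigen-presenting cells that could bring class II RNA were looked for by their own markers. In the control and then the sgStat5 libraries, in the order of replicates, the B-cell genes Ms4a1 and Pax5 had 0 counts in each, Cd79a had 0, 1, 0 and 12 and Fcrla 0, 0, 7 and 4. Other listed B-cell markers were detected: Cd79b had 263, 243, 331 and 202 counts, Ebf1 29, 160, 36 and 148 and Blk 4486, 1902, 3704 and 2547. Pou2af1, active in B cells, was higher within each pair (8.62 and 1.84 CPM in the control and 16.2 and 6.81 CPM in the sgStat5 libraries), and so was Spib, a factor of B and plasmacytoid dendritic cells that is also on the T-lineage list (10.4 and 1.36 CPM in the control and 18.5 and 8.57 CPM in the sgStat5 libraries; 1.56, SE 0.49, not passed). The dendritic-cell genes Siglech had 0, 1, 0 and 0 counts and Clec9a 0, 0, 0 and 6. Of 18 tested myeloid and dendritic markers, 1 rose (Mpeg1) and 0 fell, with a median of 0.57, and 13 had a positive and 5 a negative fold change. Their summed level was 22.4 and 35.5 CPM in the control and 32.5 and 58.7 CPM in the sgStat5 libraries, so it was higher in sgStat5 within each pair. Mpeg1, which encodes perforin-2, stood at 0.651 and 1.0 CPM in the control and 12.9 and 19.0 CPM in the sgStat5 libraries and accounted for more than the difference between arms in replicate 1. Mpo stood at 0.0383 and 2.32 CPM in the control and 0.530 and 6.203 CPM in the sgStat5 libraries, Lyz2 at 0.881 and 1.52 CPM in the control and 0.796 and 2.51 CPM in the sgStat5 libraries and the monocyte receptor gene Csf1r at 0.153 and 0.452 CPM in the control and 0.398 and 1.22 CPM in the sgStat5 libraries. Ctsg was lower in each pair, with 138 and 395 counts in the control and 45 and 169 in the sgStat5 libraries. So was Cd68, with 162 and 122 counts in the control and 111 and 73 in the sgStat5 libraries. The part of cells with such markers in the class II levels was not tested.

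**Figure D2:**
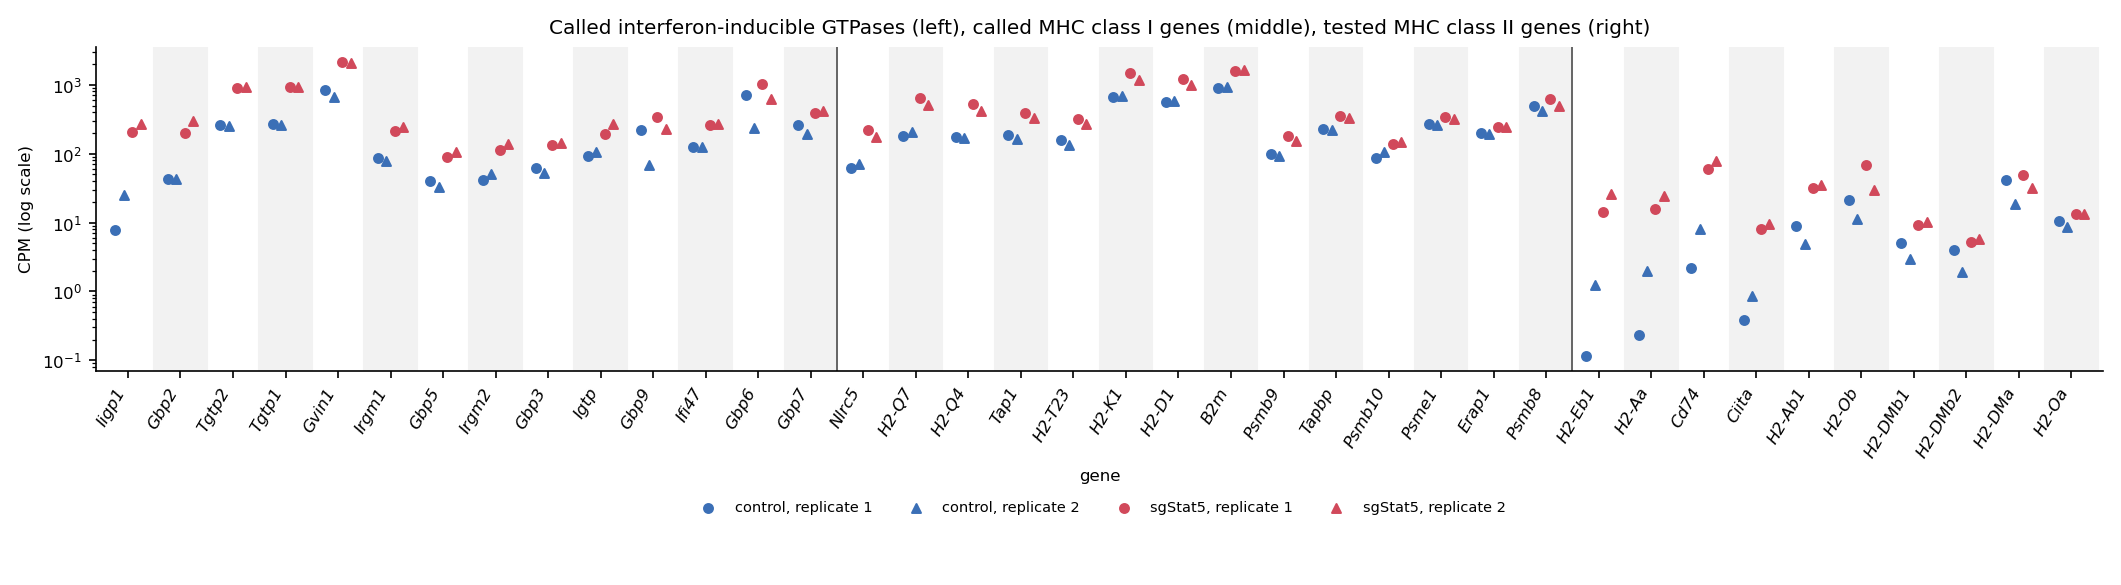
Level in CPM (log axis) in each of the 4 post-commitment libraries of the 14 called interferon-inducible GTPases, the 14 called MHC class I genes and the 10 tested MHC class II genes, separated by vertical lines and ordered by fold change within each block. Blue marks control and red sgStat5, circles replicate 1 and triangles replicate 2. For the class II genes H2-Eb1, H2-Aa, Cd74 and Ciita both red points lie far above both blue points.

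The largest changes outside these lists were in genes of varied kinds. They were named by a rule that took the 15 genes with the largest rise and the 15 with the largest fall among calls without overlap between arms and with at least 10 CPM in the higher arm. Dscam (chromosome 16, 96592079 to 97170735), a cell-adhesion gene best known from neurons, stood at 0.230 and 0.419 CPM in the control and 11.4 and 11.0 CPM in the sgStat5 libraries (5.08, SE 0.42, adjusted p = 0.000197). Ntrk3, which encodes the neurotrophin receptor TrkC, stood at 9.69 and 4.03 CPM in the control and 59.3 and 31.7 CPM in the sgStat5 libraries (2.77, SE 0.22, adjusted p = 0.000190, 0.0508 unblocked). Both control libraries were low for both genes, and replicate 1 of Ntrk3 was above replicate 2 in both arms. Actn2, a muscle alpha-actinin, stood at 2.99 and 0.226 CPM in the control and 62.2 and 14.4 CPM in the sgStat5 libraries (4.90, SE 0.36, adjusted p = 0.000190, 0.287 unblocked), and replicate 1 was above replicate 2 in each arm. The predicted genes Gm4951 (3.65, SE 0.35, adjusted p = 0.000318, 0.187 unblocked) and Gm12185 (2.93, SE 0.28, adjusted p = 0.000327) also rose. Both lie near interferon-inducible GTPase genes that rose, Gm4951 near Iigp1 on chromosome 18 and Gm12185 between Irgm1 and Tgtp1 on chromosome 11. These 2 are therefore not clearly apart from the GTPase list. Also among the 15 were Ccr9, Ptcra and the interferon, MHC, Bcl6 and Mpeg1 genes given in other paragraphs.

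Among the 15 falls the largest was that of Nlrp6 (chromosome 7, 140920902 to 140929192), an inflammasome sensor best known from gut epithelium. It stood at 43.6 and 13.0 CPM in the control and 2.39 and 0.502 CPM in the sgStat5 libraries (-4.34, SE 0.35, adjusted p = 0.000190, 0.106 unblocked). Ndrg2, a gene linked to restraint of growth, stood at 80.1 and 24.3 CPM in the control and 3.31 and 2.37 CPM in the sgStat5 libraries (-3.99, SE 0.33, adjusted p = 0.000191, 0.0570 unblocked), and the imprinted RNA H19 at 77.4 and 32.3 CPM in the control and 6.10 and 4.20 CPM in the sgStat5 libraries (-3.33, SE 0.39, adjusted p = 0.000953). In all 3 control replicate 1 was the highest library, and neither sgStat5 library reached the lower control library. Nhsl2 (-4.16, SE 0.41, adjusted p = 0.000377) and Podxl, which encodes the sialomucin podocalyxin (-3.28, SE 0.27, adjusted p = 0.000197), also fell. Genes of the actin skeleton were among the 15: Enah (-2.63, SE 0.33, adjusted p = 0.00153, 0.266 unblocked) and the ARP3 relative Actr3b (-2.69, SE 0.37, adjusted p = 0.00272). So were the transcription factor gene Onecut2 (-2.99, SE 0.65, adjusted p = 0.0240, 0.252 unblocked), the cilium gene Drc1 (-3.19, SE 0.31, adjusted p = 0.000339, 0.0622 unblocked), Fsd1l (-3.74, SE 0.49, adjusted p = 0.00205, 0.0802 unblocked) and the predicted gene Gm15663 (-3.11, SE 0.29, adjusted p = 0.000306). Socs2, Cish and Lilrb4a were also among them. The library kit keeps no strand, so that reads of a gene on the opposite strand can enter these counts.

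Lilrb4a and Lilr4b, which encode receptors of leukocytes, are paralogs that can share reads. They stood at 12.1 and 14.4 and 8.96 and 10.9 CPM in control and at 1.15 and 1.65 and 0.619 and 1.43 CPM in sgStat5 libraries, and both fell (-3.26 and -3.30). Csf2rb, the beta common chain of the receptors for IL-3, IL-5 and GM-CSF, stood at 7.96 and 11.6 CPM in the control and 2.39 and 2.94 CPM in the sgStat5 libraries (-1.86, SE 0.22, adjusted p = 0.00113). They belong to a list of 9 tested genes with a median log2 fold change of 0.46, positive in 5 and negative in 4. These 3 were the called members among 9 tested genes of that list, and they stayed called without the block and with any 1 library left out.

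Some factors of T-cell identity rose within the pairs. Of 20 tested T-lineage transcription factors 7 rose and 0 fell, with a median of 0.33, and 19 had a positive fold change. Bcl11b, the commitment factor and reporter gene, was higher in sgStat5 within each pair (0.74, SE 0.14, adjusted p = 0.0106, 0.755 unblocked), and its values, given above, overlap between arms. Tcf7, which encodes TCF1, a factor that Notch switches on early, stood at 1076 and 1004 CPM in the control and 1449 and 1274 CPM in the sgStat5 libraries (0.39, SE 0.06, adjusted p = 0.00372, 0.109 unblocked). Gata3, another early factor, stood at 112 and 119 CPM in the control and 147 and 151 CPM in the sgStat5 libraries (0.36, SE 0.09, adjusted p = 0.0357, 0.141 unblocked). The E-protein gene Tcf12 (0.63, 0.154 unblocked), the chromatin organiser gene Satb1 (0.81, 0.332 unblocked) and Myb (0.30, 0.539 unblocked) rose as well. Ikzf3, an Ikaros relative of later lymphocytes, stood at 0.460 and 0.129 CPM in the control and 8.80 and 2.29 CPM in the sgStat5 libraries (4.15, SE 0.70, adjusted p = 0.00689, 0.0789 unblocked). Runx1 (0.16, SE 0.08), Ikzf1 (0.09, SE 0.07) and Lef1 (0.15, SE 0.26) did not pass. None of the 7 was called without the block, so these calls rest on the pairing. Each was also lost when at least 1 particular library of the 4 was left out.

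Genes of the CD3 and pre-T-cell receptor complex did not move together. Of 20 tested, 4 rose and 2 fell (median -0.13). Ptcra, the pre-T-cell receptor alpha chain, stood at 12.1 and 1.10 CPM in the control and 46.9 and 26.8 CPM in the sgStat5 libraries, with control replicate 2 far below the other libraries (2.97, SE 0.53, adjusted p = 0.00923, 0.339 unblocked), and without sgStat5 replicate 2 it did not pass. The CD3 genes themselves had negative values that did not pass: Cd3e stood at 237 and 29.7 CPM in the control and 142 and 21.8 CPM in the sgStat5 libraries (-0.61, SE 0.16), and Cd3d (-0.19, SE 0.30) and Cd3g (-0.18, SE 0.25) likewise varied more between replicates than between arms. The surface genes Thy1 (-0.49, SE 0.08, adjusted p = 0.00695, 0.390 unblocked) and Cd7 (-0.60, SE 0.15, adjusted p = 0.0396, 0.387 unblocked) fell. Cd27 (0.54, SE 0.07, adjusted p = 0.00229, 0.181 unblocked) and Cd6 (1.22, SE 0.31, adjusted p = 0.0445, 0.203 unblocked) rose. Cd27 alone of the 6 stayed called with any 1 library left out, and none was called without the block.

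Genes for receptor rearrangement included 3 that rose and 1 that fell among 12 tested (median 0.15). Dntt, the polymerase that adds bases at junctions, stood at 1208 and 265 CPM in the control and 2282 and 902 CPM in the sgStat5 libraries (1.38, SE 0.28, adjusted p = 0.0162, 0.766 unblocked), and Rag1, a subunit of the recombinase, at 233 and 118 CPM in the control and 518 and 220.3 CPM in the sgStat5 libraries (1.04, SE 0.17, adjusted p = 0.00609, 0.401 unblocked). In both, control replicate 1 exceeded sgStat5 replicate 2, so the arms overlap and the increase exists within pairs. The ligase gene Lig4 rose (0.53, SE 0.11, adjusted p = 0.0160, 0.441 unblocked) and the repair polymerase gene Poll fell (-0.91, SE 0.15, adjusted p = 0.00626, 0.115 unblocked). Rag2 (0.37, SE 0.13) did not pass. None of these 4 was called without the block, and none stayed called in all 4 fits that leave out 1 library.

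Notch pathway genes were split. Of 15 tested, 3 rose and 2 fell (median 0.45), against 3.72% and 4.49% of all genes. The receptor gene Notch3 (0.96, SE 0.16, adjusted p = 0.00701, 0.547 unblocked), the target Hes1 (0.58, SE 0.11, adjusted p = 0.0144, 0.152 unblocked) and the coactivator gene Maml1 (0.45, SE 0.10, adjusted p = 0.0266, 0.115 unblocked) rose. Lfng, a glycosyltransferase that tunes Notch to its ligands, stood at 61.0 and 51.0 CPM in the control and 30.6 and 26.2 CPM in the sgStat5 libraries (-0.98, SE 0.14, adjusted p = 0.00334), and Rbpj, the DNA-binding partner of Notch, at 144 and 159.6 CPM in the control and 104 and 109 CPM in the sgStat5 libraries (-0.51, SE 0.07, adjusted p = 0.00306, 0.0624 unblocked). Notch1 (0.54, SE 0.17) and Dtx1 (0.53, SE 0.25) did not pass.

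**Figure D3:**
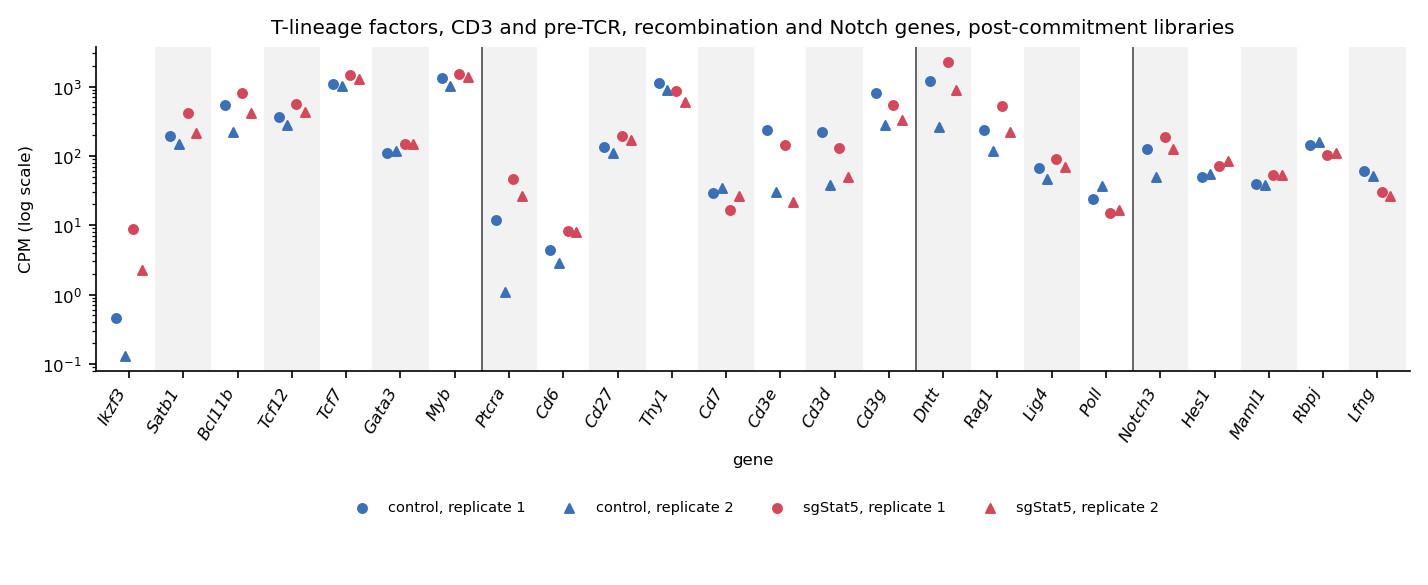
Level in CPM (log axis) of called and selected T-lineage genes in the 4 post-commitment libraries, in 4 blocks: transcription factors, CD3 and pre-TCR genes, recombination genes, Notch genes. Blue is control, red sgStat5, circles replicate 1, triangles replicate 2. For Cd3e and Cd3d the distance between circle and triangle of one colour exceeds that between colours.

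Of 23 tested progenitor regulators and growth-factor receptors, 3 rose and 1 fell (median 0.35), which is 17.4% called against 8.22% of all genes. Ly6a (Sca-1, a surface marker of stem cells that interferon also induces) stood at 37.1 and 41.8 CPM in the control and 219 and 254 CPM in the sgStat5 libraries (2.58, SE 0.09, adjusted p = 3.94e-06), the smallest adjusted p of the comparison. The homeobox genes Hoxa7 (1.77, SE 0.28, adjusted p = 0.00549, 0.156 unblocked) and Hoxa5 (1.88, SE 0.46, adjusted p = 0.0379, 0.249 unblocked) rose from low levels, and Erg, a stem-cell factor that is shut off as T cells mature, fell (-0.65, SE 0.13, adjusted p = 0.0144, 0.134 unblocked). Kit (0.22, SE 0.13), the gene Spi1 of the myeloid regulator PU.1 (0.60, SE 0.25), Lyl1 (-0.47, SE 0.22) and Bcl11a (0.25, SE 0.27) did not pass. Ly6a alone of the 4 stayed called without the block and with any 1 library left out.

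Of 20 genes of FOXO signalling and lymphocyte quiescence, 4 rose and 0 fell (median 0.30). These were Btg1, an inhibitor of proliferation (1.11, SE 0.18, adjusted p = 0.00590, 0.254 unblocked), Foxo1 (0.85, SE 0.21, adjusted p = 0.0368, 0.190 unblocked), Pik3ip1, an inhibitor of PI3-kinase (0.74, SE 0.12, adjusted p = 0.00625, 0.379 unblocked), and the stress sensor Sesn1 (0.46, SE 0.10, adjusted p = 0.0228, 0.291 unblocked). Klf2 stood at 3.18 and 2.10 CPM in the control and 1.81 and 1.22 CPM in the sgStat5 libraries (-0.80, SE 0.49), and Cdkn1b, a FOXO target that halts the cycle, at 62.5 and 51.3 CPM in the control and 92.7 and 68.1 CPM in the sgStat5 libraries (0.49, SE 0.15). All 4 calls were lost without the block and without sgStat5 replicate 1.

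Part of the listed genes of biosynthesis and metabolism fell, most of them by less than 1 on the log2 scale. The list of amino acid transport and ATF4 targets had 11 of 20 genes that fell and 0 that rose (median -0.45). Asns, asparagine synthetase, stood at 9.69 and 17.9 CPM in the control and 3.14 and 10.1 CPM in the sgStat5 libraries (-1.17, SE 0.22, adjusted p = 0.0132, 0.612 unblocked), and Trib3, an ATF4-induced pseudokinase, at 3.71 and 5.19 CPM in the control and 0.309 and 1.54 CPM in the sgStat5 libraries (-2.43, SE 0.57, adjusted p = 0.0330, 0.303 unblocked). The arms overlapped in 6 of the 11, among them Asns, Slc3a2 and Atf4. The serine synthesis gene Phgdh went from 553 and 545 to 419 and 392 CPM (-0.44, SE 0.06, adjusted p = 0.00271, 0.0533 unblocked), and Slc7a5 (-0.60, 0.316 unblocked) and Slc3a2 (-0.41, 0.566 unblocked), the 2 chains of a leucine transporter, fell together with Atf4 itself (-0.47, 0.535 unblocked).

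Of 20 glycolysis genes 5 fell and 1 rose (median -0.38). Eno1, an enolase, stood at 347 and 402 CPM in the control and 156 and 209.6 CPM in the sgStat5 libraries (-1.04, SE 0.09, adjusted p = 0.000265), the largest fall of the list among genes that passed. Pgk1 (-0.52, 0.187 unblocked), Pgam1 (-0.45, 0.161 unblocked), Gapdh (-0.39, 0.279 unblocked) and the glucose transporter gene Slc2a1 (-0.56, 0.262 unblocked) fell, while the neuronal-type transporter gene Slc2a3 rose (0.52, SE 0.13, adjusted p = 0.0445, 0.284 unblocked). Hk2 (-0.48, SE 0.23) and Ldha (-0.19, SE 0.11) did not pass. Ribosome biogenesis had 8 genes that fell and 0 that rose of 24 (median -0.29), among them Srm (-0.73, 0.390 unblocked), the nucleolar proteins Ncl (-0.43, 0.2403 unblocked) and Npm1 (-0.35, 0.455 unblocked), and Polr1b of RNA polymerase I (-0.46, 0.267 unblocked). The arms overlapped for Srm and Npm1. Of 23 genes of sterol and fatty acid synthesis 6 fell and 0 rose (median -0.33), among them Scd1 (-0.73, 0.222 unblocked), Lss (-0.51, 0.173 unblocked), Fasn (-0.45, 0.0824 unblocked) and Sqle (-0.38, 0.177 unblocked).

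Most calls in these 4 lists rested on the pairing, and most were lost in at least 1 of the fits that left out a library. Eno1 alone was called without the block. Without control replicate 2 ribosome biogenesis had 0 calls and glycolysis 1, and without sgStat5 replicate 1 they also had 0 and 1. The number of genes that stayed called with any 1 library left out was 2 for amino acid genes, 1 for glycolysis, 1 for sterol genes and 0 for ribosome biogenesis.

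Among cell-cycle and death genes the shares called, 0 to 8.33% per list, were near or under the 8.22% of all genes. Ccnd2, Bcl2 and Bcl2l1, which fell, were counted in the STAT5-associated list and not in these lists. Of 26 replication and mitosis genes 2 fell, Mcm3 (-0.27, SE 0.06, adjusted p = 0.0303, 0.175 unblocked) and Rrm1 (-0.24, SE 0.06, adjusted p = 0.0468, 0.343 unblocked), and 0 rose (median -0.15). A negative fold change, mostly small, was seen in 25 of the 26. Mki67 stood at 1151 and 1080.1 CPM in the control and 1143 and 879 CPM in the sgStat5 libraries (-0.14, SE 0.14). Of 12 listed cell-cycle regulators the 1 that fell was Cdkn1a, which encodes the CDK inhibitor p21 (-1.07, SE 0.21, adjusted p = 0.0167, 0.105 unblocked), and Cdk6 (0.00, SE 0.06) and Cdkn2c (0.15, SE 0.16) did not pass. Beyond Bcl2 and Bcl2l1, 0 of 16 tested BCL2-family genes passed. The death inducer Bcl2l11, which encodes BIM, stood at 36.9 and 31.7 CPM in the control and 33.2 and 30.1 CPM in the sgStat5 libraries (-0.12, SE 0.22) and Bax at 48.0 and 52.9 CPM in the control and 41.5 and 45.7 CPM in the sgStat5 libraries (-0.21, SE 0.14). Of 16 genes of the p53 response 1 rose, Trp53inp1 (1.19, SE 0.19, adjusted p = 0.00585, 0.448 unblocked), with overlap between arms.

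Of the 4 tested Ras exchange factors of the RasGRP family 3 fell. Rasgrp3 stood at 8.46 and 15.4 CPM in the control and 2.08 and 2.65 CPM in the sgStat5 libraries (-2.31, SE 0.40, adjusted p = 0.00767, 0.0699 unblocked), Rasgrp2 at 111 and 124 CPM in the control and 59.1 and 65.9 CPM in the sgStat5 libraries (-0.91, SE 0.08, adjusted p = 0.000224) and Rasgrp1, the main exchange factor downstream of the T-cell receptor, at 207 and 128 CPM in the control and 99.0 and 84.4 CPM in the sgStat5 libraries (-0.83, SE 0.15, adjusted p = 0.00880, 0.338 unblocked). Both sgStat5 libraries were below both controls in all 3. The arms overlapped for Rasgrp4, which did not pass (0.05, SE 0.15). Etv5, an ETS factor, stood at 35.5 and 48.3 CPM in the control and 101.1 and 114 CPM in the sgStat5 libraries (1.36, SE 0.15, adjusted p = 0.000771), and Dusp6, an ERK phosphatase, rose by less (0.58, SE 0.10, adjusted p = 0.00933, 0.131 unblocked). These were the 5 calls among 15 tested genes. Of 14 immediate-early genes 2 fell, Nr4a3 (-2.88, SE 0.66, adjusted p = 0.0299, 0.108 unblocked) and Jund (-0.79, SE 0.10, adjusted p = 0.00123), and Fos (0.10, SE 0.45), Jun (0.51, SE 0.31) and Egr1 (-0.15, SE 0.21) did not pass.

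In the NF-kappaB family, 5 of 16 tested genes rose and 1 fell (median 0.53). Bcl3, a nuclear partner of NF-kappaB, stood at 6.66 and 3.71 CPM in the control and 24.3 and 29.98 CPM in the sgStat5 libraries (2.45, SE 0.26, adjusted p = 0.000563), and Relb and Nfkb2, the subunits of the noncanonical pathway, at 3.18 and 4.87 CPM in the control and 18.9 and 14.4 CPM in the sgStat5 libraries for the first and 29.4 and 22.0 CPM in the control and 71.4 and 41.5 CPM in the sgStat5 libraries for the second (2.10, SE 0.34, adjusted p = 0.00590, 0.0711 unblocked, and 1.11, SE 0.18, adjusted p = 0.00590, 0.109 unblocked). The arms did not overlap in any of these. The inhibitor gene Nfkbia (1.08, SE 0.19, adjusted p = 0.00893, 0.254 unblocked) and the survival gene Birc3 (0.94, SE 0.15, adjusted p = 0.00601, 0.132 unblocked) rose, and Nfkb1 fell (-0.55, SE 0.08, adjusted p = 0.00382). Rela (0.05, SE 0.09) did not pass. Relb lost its call without control replicate 1 or sgStat5 replicate 1, and Nfkb2 without sgStat5 replicate 1.

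TNF-family genes included 3 that fell and 2 that rose among 22 tested, besides Lta and Tnfrsf9 of the STAT5 list. Tnfsf11, which encodes RANKL, stood at 67.1 and 60.05 CPM in the control and 11.5 and 15.1 CPM in the sgStat5 libraries (-2.26, SE 0.17, adjusted p = 0.000190). Tnfsf8, the CD30 ligand (-2.13, SE 0.37, adjusted p = 0.00853, 0.120 unblocked), and Tnfrsf18, which encodes GITR (-1.03, SE 0.16, adjusted p = 0.00438), also fell. Ltb, lymphotoxin beta, which pairs with lymphotoxin alpha, was higher in each pair (0.85, SE 0.11, adjusted p = 0.00224, 0.495 unblocked) with overlap between arms (56.5 and 31.3 CPM in the control and 106 and 54.1 CPM in the sgStat5 libraries). Tnfsf10, which encodes TRAIL, rose (0.88, SE 0.12, adjusted p = 0.00211, 0.157 unblocked).

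Homing genes moved in both directions, with 2 of 24 that rose and 5 that fell (median 0.29). Fold changes were positive in 16 of the 24 and negative in 8. Ccr9, the receptor that draws progenitors to thymus and gut, stood at 1.99 and 0.807 CPM in the control and 22.2 and 6.88 CPM in the sgStat5 libraries (3.29, SE 0.38, adjusted p = 0.000877, 0.145 unblocked), with sgStat5 replicate 1 well above replicate 2. Without sgStat5 replicate 1 it did not pass. Ccr4 stood at 38.9 and 34.9 CPM in the control and 9.77 and 9.50 CPM in the sgStat5 libraries (-1.94, SE 0.17, adjusted p = 0.000241), and Cxcr5, a receptor of follicle-homing lymphocytes, at 133 and 117 CPM in the control and 59.1 and 47.5 CPM in the sgStat5 libraries (-1.23, SE 0.10, adjusted p = 0.000195). The integrin gene Itga4 rose (0.90, SE 0.08, adjusted p = 0.000265), and Itga6 (-0.99, SE 0.09, adjusted p = 0.000224, 0.268 unblocked), Itgav (-0.76, SE 0.11, adjusted p = 0.00392) and Itgb7 (-0.48, SE 0.12, adjusted p = 0.0489, 0.314 unblocked) fell. Cxcr4 (0.11, SE 0.10) did not pass.

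**Figure D4:**
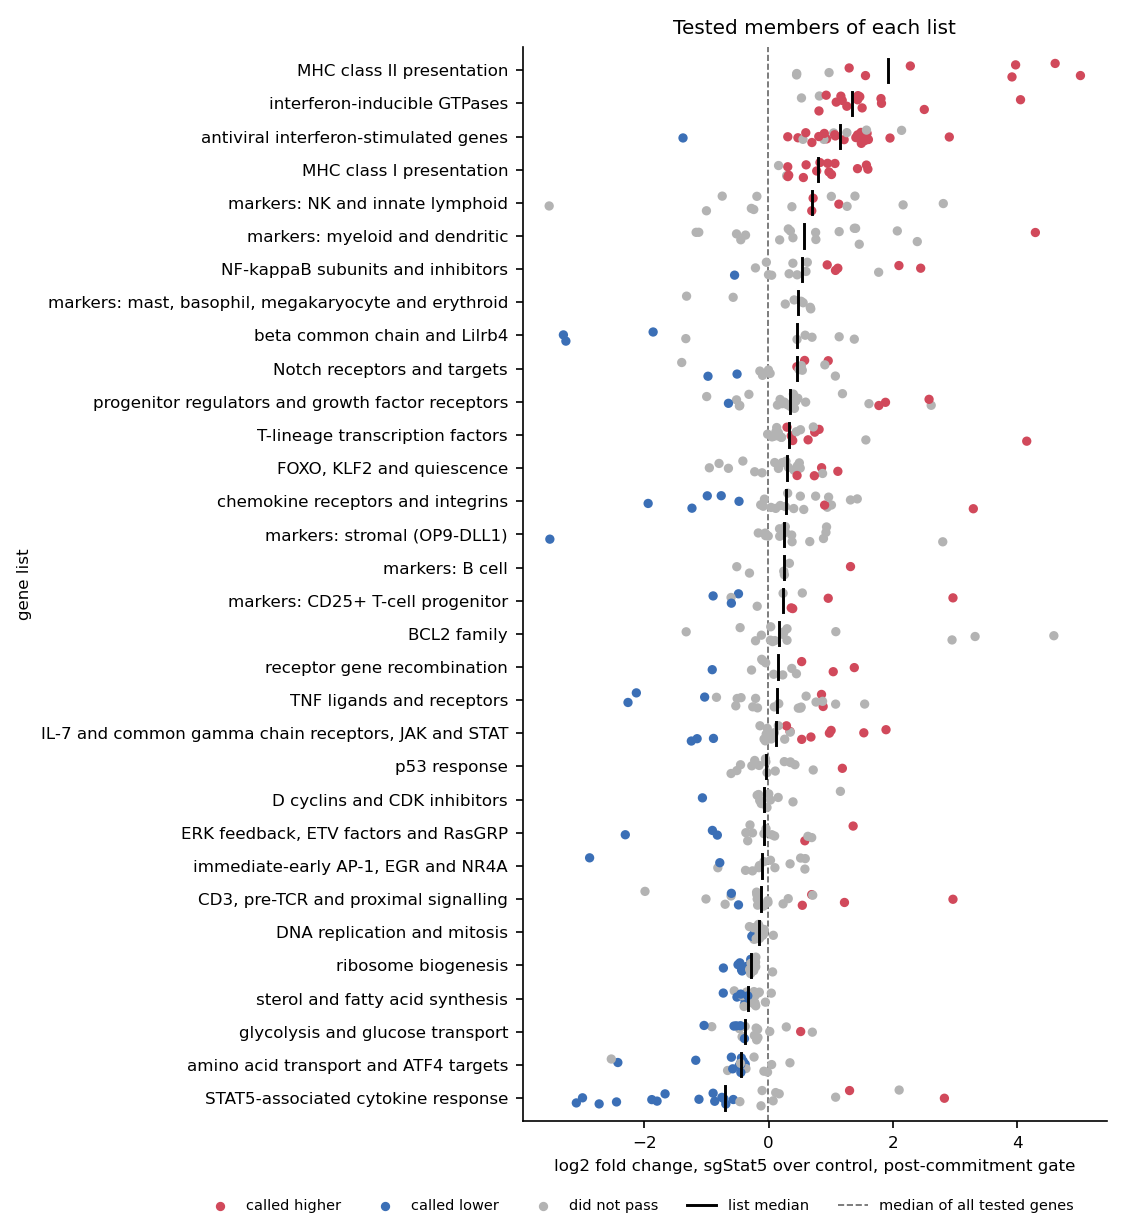
Log2 fold change of sgStat5 over control in the post-commitment gate for every tested member of 32 gene lists, with genes called higher in red, called lower in blue and others in grey, the list median as a black bar and the median of all tested genes as a dashed line. The 4 interferon and MHC lists lie farthest to the right and the STAT5-associated list farthest to the left.

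Markers of other cells that the gate could hold were measured as lists. Stromal markers of the feeder cells summed to 633 and 951 CPM in the control and 676 and 912 CPM in the sgStat5 libraries, and 1 of 18, Timp3, fell (-3.52, SE 0.32, adjusted p = 0.000276), whereas the collagens Col1a1 (28.9 and 83.0 CPM in the control and 29.2 and 76.3 CPM in the sgStat5 libraries) and Col1a2 followed the replicate number and not the arm. Of 15 NK and innate lymphoid markers 3 rose and 0 fell: Gzma (0.72, SE 0.11, adjusted p = 0.00477, 0.265 unblocked), Il17rb (0.69, SE 0.11, adjusted p = 0.00522, 0.451 unblocked) and Rora (1.13, SE 0.27, adjusted p = 0.0367, 0.169 unblocked). The 15 summed to 1246 and 1857 CPM in the control and 2164 and 2436 CPM in the sgStat5 libraries, most of it Gzma, while the defining genes Eomes, Tbx21 and Klrb1c had at most 0.430 CPM in any of the 4 libraries. Fold changes were positive in 9 of the 15 and negative in 6. Without passing, Gzmb (1116 and 4591 counts in the control and 661 and 1677 in the sgStat5 libraries) and Nkg7 (3221 and 3933, then 2041 and 3248) were lower in each pair. Zbtb16 (263 and 778, then 644 and 1132 counts) was higher in each pair and did not pass either. B-cell markers summed to 194 and 77.3 CPM in the control and 197 and 113 CPM in the sgStat5 libraries, with Pou2af1 the 1 of 6 that rose (1.32, SE 0.31, adjusted p = 0.0337, 0.648 unblocked). Of 8 mast-cell, megakaryocyte and erythroid markers 0 passed, with a sum of 362 and 534 CPM in the control and 610.0 and 682 CPM in the sgStat5 libraries. Of 11 markers of CD25+ T-cell progenitors 4 rose and 3 fell, and they summed to 8283 and 6386 CPM in the control and 6758 and 5880.0 CPM in the sgStat5 libraries. The part of these cells in the results was not tested.

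The pre-commitment gate gives the same contrast in 4 other libraries, which shares no library with the post-commitment contrast although all 8 enter 1 fit. There 321 genes were called (2.33% of those tested), 138 higher and 183 lower. Of them 288 were called in both gates, with the same sign in all 288, which is 25.4% of the post-commitment calls and 89.7% of the pre-commitment calls. Among genes called higher in both, the median log2 fold change was 1.29 after and 0.93 before commitment, and among genes called lower in both it was -1.32 and -1.16. Of the 1132 post-commitment calls 1082 had the same sign of fold change before commitment, and 50 the opposite sign, of which 32 were higher after commitment. The same-sign share over all genes tested is not given here. Deviations of same-numbered libraries from their group means correlated across the gates (0.518 in control and 0.374 in sgStat5). The gates are thus linked, and the shared signs are no independent repeat. Genes chosen for passing in 1 gate tend to show larger values there, so these medians are a description.

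A difference between the effects of the 2 gates was tested gene by gene, and 0 of the 13775 genes passed (0%) by edgeR. At an unadjusted p below 0.05 there were 814, and DESeq2 called 71. The smallest adjusted p, 0.112, was shared by Ntrk3 and Dscam. Ntrk3 stood at 3.82 and 2.22 and at 3.01 and 2.44 CPM in the pre-commitment control and sgStat5 libraries, with a difference of log2 effects of 2.87 (SE 0.33). Dscam stood at 1.89 and 2.83 and 3.86 and 3.10 CPM there (difference 4.50, SE 0.54). For Dscam both sgStat5 libraries were above both control libraries before commitment too (0.57, adjusted p = 0.563), while for Ntrk3 the arms overlapped (-0.10, adjusted p = 0.924).

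The medians of the GTPase, class I, class II and STAT5-associated lists had the same sign in both gates, which did not hold for every list. For the list with the beta common chain they were 0.46 after and -0.77 before commitment, and for TNF-family genes 0.13 and -0.14. Interferon-inducible GTPases had a median log2 fold change of 1.34 after and 1.05 before commitment, class I genes 0.80 and 0.46, and STAT5-associated genes -0.70 and -0.53. The 10 class II genes had medians of 1.92 and 0.84. Cd74 stood at 3.66 and 12.5 and 11.4 and 30.5 CPM before commitment (1.41, adjusted p = 0.0562), and the difference between gates was 2.56 (SE 0.44, adjusted p = 0.279). Etv5 (difference 1.28, SE 0.21, adjusted p = 0.245), Nfkb2 (1.31, SE 0.26, adjusted p = 0.369) and Rasgrp2 (-0.75, SE 0.11, adjusted p = 0.202) had values near 0 before commitment (0.08, -0.20 and -0.16) and did not pass for the difference either. Il7r (1.53 after and 1.57 before, difference -0.04, SE 0.16), Ly6a (2.58 and 2.49, difference 0.09, SE 0.12) and Stat5a (-1.15 and -1.29, difference 0.14, SE 0.10) had differences of at most 0.14.

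**Figure D5:**
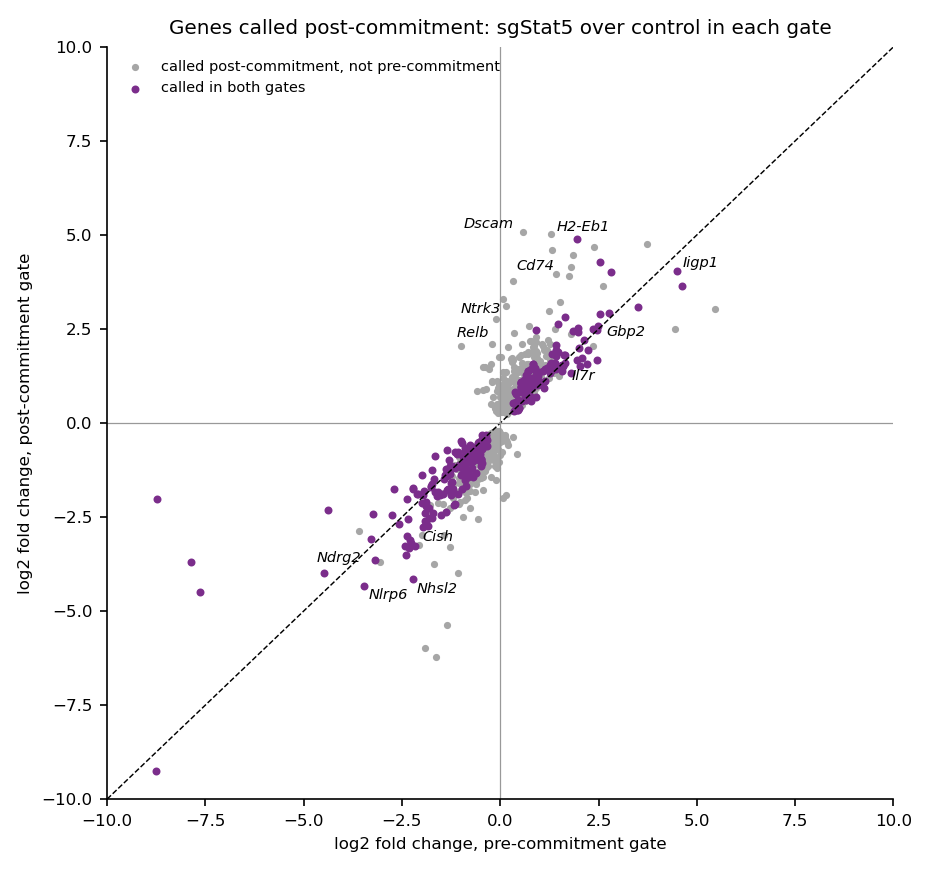
Log2 fold change of sgStat5 over control for the 1132 genes called after commitment, plotted against the fold change of the same gene before commitment. Purple marks the 288 genes called in both gates, grey those called after commitment and not before, and the dashed line marks equal values. Ntrk3 and Relb lie near 0 on the horizontal axis, and Iigp1, Gbp2 and Ndrg2 lie near the dashed line.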

How the data were processed

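RNA from 8 sorted populations (4 groups of 2, with 4 libraries after commitment) was made into libraries with a kit that keeps no strand, per the labels' protocols. Per the submitters' processing notes the tools were bcl2fastq 1.8.4, STAR 2.4.0 and RSEM 1.2.25, with GRCm38/mm10. Per the file headers, the deposited table of raw counts and that of FPKM values came from HOMER, and the authors' FPKM values scale reads by transcript length and library size. What RSEM was used for is not stated there.

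From the counts, genes were filtered with filterByExpr, scaled by TMM and tested with edgeR 4.0.16 (R 4.3.3), two-sided quasi-likelihood F-test with Benjamini-Hochberg adjustment over 13775 genes and a threshold of 0.05. The model held 4 group means over 8 libraries and the replicate number as a block. The SE was derived from the fold change and the F value. The labels do not say what a replicate number shares. Deviations from group means of same-numbered libraries correlated across genes in all 6 pairs of groups (0.374 to 0.537), and the common dispersion was 0.0178 with and 0.0853 without the block. Replicates of a group differed by far more than sampling noise (chi-square per degree of freedom of 62.97 and 45.25 in the late groups), so none were merged. Counting error at these depths is small for all but the lowest genes.

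Alternatives were no block, only the compared libraries, RLE factors, DESeq2 1.42.0, no filter, a filter of 5 CPM in 2 libraries, limma 3.58.1 on log2(FPKM + 1), a test against 1.5-fold, and each library left out. Named were Stat5a and Stat5b, members of 32 gene lists, and the 15 largest rises and falls without overlap at 10 CPM or more in the higher group. Clec9a, Siglech and Ms4a1 had too few counts to be tested. A few genes that the naming rule picks are not reported here. Of the tested genes 44 had counts identical to another gene, and 113 lay at more than 1 locus. The members and lists were chosen with earlier results of these data known.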

Additional observations from a re-analysis of the deposited data

How the results depend on the processing

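After commitment the count of called genes was 1132, and 235 without the replicate block. It was 2273 with only the 4 late libraries in the fit (replicate block kept), 294 against a 1.5-fold change, and 401 to 674 when 1 of the 4 libraries was left out, lowest without sgStat5 replicate 1. RLE factors, DESeq2, no filter, the stricter filter and FPKM values gave 854 to 1553. The split was 513 higher and 619 lower, 502 and 352 by limma on FPKM values, and 582 and 530 with the stricter filter. Before commitment 321 genes were called, 37 without the replicate block, 486 with only the 4 early libraries, 558 by DESeq2, 191 on FPKM values, 81 against a 1.5-fold change and 104 to 259 with 1 library left out. For the difference between gates edgeR called 0 genes, DESeq2 71 and the fit with no filter 11, and 0 to 6 were called with 1 library left out. Of the 200 named genes with a call, all kept their sign in every setting that tested them (195 of them under the stricter filter), 66 stayed called without the block and 96 with any 1 library left out. The cause of these shifts was not tested. With 2 libraries per group, where leaving out 1 leaves a lone sample assumed to vary like the rest, 3 residual degrees of freedom limit what can be called, and a gene that did not pass was not shown to be unaltered.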
